A study of Homo sapiens with 2 samples.

Results

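The cancer-testis antigen families described here were 88 protein-coding genes of the 62700 genes in the deposited gene table. They were matched by symbol: the MAGEA, MAGEB and MAGEC numbered genes, the symbols starting with GAGE, PAGE, XAGE, SSX, CT45A, CTAG and SPANX, and PRAME and SAGE1. In all, 105 symbols matched, and 17 of them were not protein-coding in GENCODE release 29 on GRCh38. Of the 88 members, 81 lay on chromosome X. The 7 others were PRAME on chromosome 22 and 6 CTAGE genes, which the start "CTAG" also takes in although they belong to another family than CTAG1A, CTAG1B and CTAG2. The families held 13 GAGE genes, 12 MAGEA, 11 MAGEB, 10 SPANX, 9 CT45A, 8 SSX, 6 PAGE, 6 CTAGE, 5 XAGE, 3 MAGEC and 3 CTAG genes, besides PRAME and SAGE1.

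Both libraries came from TCam-2, an established human testicular cancer cell line used as a model of seminoma, transduced to overexpress a FLAG-tagged DDX53, itself a cancer-testis gene that encodes a DEAD-box RNA helicase. Polyadenylated RNA of this 1 group was sequenced in 2 replicates with a strand-specific kit. The GFP-FLAG and untransduced controls that the design names were not analysed here, so every value below is a level in DDX53-overexpressing cells and no effect of DDX53 was computed. The labels do not say whether the replicates were separate transductions or cultures, nor whether the cells were 1 clone. The recovered reads summed to 24137664 in replicate 1 and 22198929 in replicate 2. DDX53 itself, counted as 146 and 147 reads, averaged 6.34 CPM (reads of a gene relative to all reads in genes). The line's own markers were present: all 12 genes of a seminoma and primordial germ cell list were at 1 CPM or more in both libraries. Of 8 markers of spermatogonia and spermatocytes 2 were (UTF1 and ID4), with DAZL and SYCP1 at 0 reads. The same level was reached by 3 of 4 embryonal carcinoma markers and 2 of 6 Sertoli and Leydig cell markers. It was also reached by 3 of 5 fibroblast and endothelium markers, of which COL1A2 was at 439 CPM. Of all protein-coding genes 61.6% reached 1 CPM in both libraries, so a count near this share does not mark a cell type.

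Cancer-testis antigens are proteins made in male germ cells, in some cases placenta, and in many tumours, while most other tissues keep the genes silent. Promoter DNA methylation is a main part of that silencing, and T cells can recognise the proteins, which made several of them vaccine and antibody targets. Most sit in recently duplicated clusters on chromosome X, so neighbouring copies differ by few bases. MAGE proteins bind RING ubiquitin ligases, SSX proteins act on chromatin, SPANX proteins belong to the maturing sperm nucleus, and PRAME is a leucine-rich repeat protein that serves as a substrate receptor of a cullin ligase.

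The XAGE genes carried the pattern the data turn on, and their coding sequences show how the copies relate. XAGE1A and XAGE1B encode the same 246 coding bases, printed once. XAGE2 and XAGE3 have 336 coding bases and XAGE5 has 327, and of each the last 300 bases are shown (positions 37 to 336, and 28 to 327 in XAGE5). Capitals mark bases that differ from XAGE2 in a pairwise alignment, 44 of the printed bases in XAGE3 and 44 in XAGE5, which also lacks 9 bases of XAGE2. All were cut from GENCODE 29 transcripts.
XAGE1A and XAGE1B: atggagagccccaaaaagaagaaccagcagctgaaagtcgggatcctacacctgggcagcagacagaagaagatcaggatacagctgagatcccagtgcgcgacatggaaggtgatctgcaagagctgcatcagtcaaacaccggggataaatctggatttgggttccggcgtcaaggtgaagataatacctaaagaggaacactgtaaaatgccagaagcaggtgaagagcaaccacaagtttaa
XAGE2: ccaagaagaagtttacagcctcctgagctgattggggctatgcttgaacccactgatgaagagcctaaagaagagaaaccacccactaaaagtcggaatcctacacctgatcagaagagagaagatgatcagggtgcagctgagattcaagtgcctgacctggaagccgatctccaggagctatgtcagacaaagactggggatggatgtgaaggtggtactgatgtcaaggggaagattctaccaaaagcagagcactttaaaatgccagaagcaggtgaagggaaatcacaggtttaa
XAGE3: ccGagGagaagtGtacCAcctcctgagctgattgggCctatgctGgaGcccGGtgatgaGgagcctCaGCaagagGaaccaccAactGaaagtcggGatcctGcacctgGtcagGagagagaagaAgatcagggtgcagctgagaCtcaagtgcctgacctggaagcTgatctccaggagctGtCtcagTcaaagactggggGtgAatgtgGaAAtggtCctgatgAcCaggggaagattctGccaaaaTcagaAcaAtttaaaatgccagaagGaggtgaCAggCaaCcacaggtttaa
XAGE5: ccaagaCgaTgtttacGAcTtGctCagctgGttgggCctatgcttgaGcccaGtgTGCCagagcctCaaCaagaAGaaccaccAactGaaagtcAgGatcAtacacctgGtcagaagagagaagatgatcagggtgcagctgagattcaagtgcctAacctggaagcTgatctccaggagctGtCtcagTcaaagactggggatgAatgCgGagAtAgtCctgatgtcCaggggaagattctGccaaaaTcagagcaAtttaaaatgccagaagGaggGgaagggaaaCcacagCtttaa
XAGE2 was 86.6% identical to XAGE3 and 83.6% to XAGE5 over the coding bases. It was 56.4% identical to XAGE1A, whose shorter coding sequence lacks 91 bases of XAGE2, which counted as differences. No base of these coding sequences could place a read in XAGE1A rather than XAGE1B.

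The other clusters differed in how alike their coding sequences were. For each gene 1 coding sequence was aligned, that of the transcript with the highest TPM, and among equals the longest. Missing bases counted as differences, so the values also fall where the chosen sequences differ in length. SSX2 and SSX2B, with 567 and 672 coding bases, were at 79.9%, although they share an identical transcript. GAGE12B has 23 annotated coding bases, and its pairs were at 5.0% to 6.6%. The coding sequences of 9 CT45A genes were 99.1% identical in the median of 36 pairs, and 6 of those pairs were the same sequence. For 13 GAGE genes the median over 78 pairs was 95.3%, for 8 SSX genes over 28 pairs 79.1%, for 12 MAGEA genes over 66 pairs 77.4%, and for 11 MAGEB genes over 55 pairs 61.4%. The PAGE, SPANX and MAGEC genes had medians of 62.2%, 47.5% and 41.8%. Their pairs ran from 46.4% to 96.1%, from 34.4% to 100% and from 27.5% to 43.3% in the same order. In SPANX and MAGEC the lowest pairs joined sequences of unequal length. These were SPANXN2 with 543 bases and SPANXN5 with 219, and MAGEC1 with 3429 and MAGEC2 with 1122. By this measure near copies are not the rule in every family, though PAGE and SPANX hold some. A stretch of 50 coding bases shows the scale in the closest families. The GAGE stretch below stands in 12 of the 13 GAGE genes, and the CT45A stretch in 9 of 9, so a read of it names a family and no gene.
GAGE: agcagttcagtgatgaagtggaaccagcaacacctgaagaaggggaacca
CT45A: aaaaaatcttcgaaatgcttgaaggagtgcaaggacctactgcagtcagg

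Few of the members reached a level of 1 CPM. PRAME, XAGE2 and PAGE4 did so in both libraries, 3 of 88 members or 3.41%, against 61.6% of the 19870 protein-coding genes, 50.6% of the 860 on chromosome X and 55.6% of the 779 there that are no member. A read in both libraries was recorded for 12 members (13.6%), against 76.8% of protein-coding genes and 64.4% of those on chromosome X. No read in either library was recorded for 60 members. The matching share of all protein-coding genes was not computed, here or for the counts by family below. A count of 0 allows up to 3 reads, or 0.124 CPM in replicate 1 and 0.135 CPM in replicate 2, and such limits and all intervals below cover counting error only. In RNA from a whole culture, fewer cells that use a gene and less RNA per cell cannot be told apart.

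**Figure D1:**
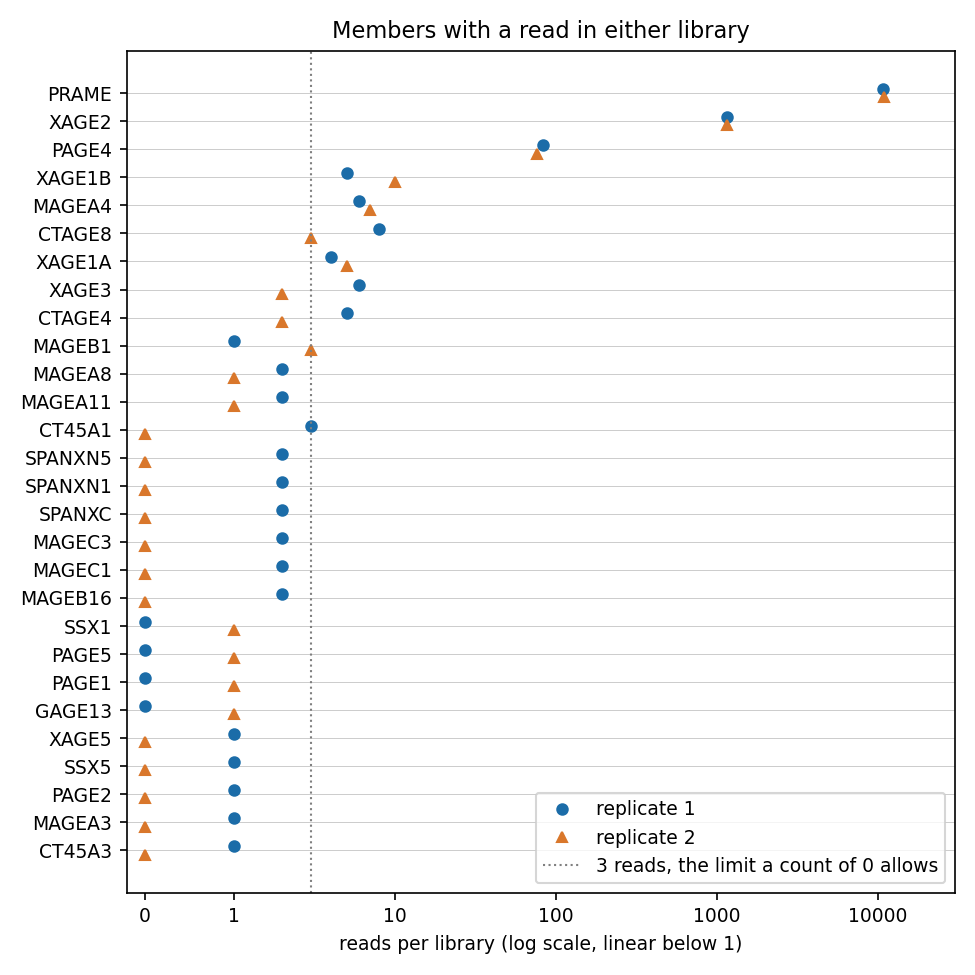
Reads per library (horizontal, log scale, linear below 1) of the 28 members with a read in either library, 1 row each, with circles for replicate 1, triangles for replicate 2 and a dotted line at 3 reads. PRAME, XAGE2 and PAGE4 stand to the right, with 76 reads or more, and no other member passes 10 reads.

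Added up, the 88 members reached 497 CPM and 545 CPM, with a mean of 521 CPM ± 34.3 (SD, n = 2), and PRAME held most of it. It lies at chr22:22547701-22559361 on the minus strand (ENSG00000185686.18). It had 10702 reads in replicate 1 and 10834 reads in replicate 2, which were 89.2% and 89.5% of all member reads. Both libraries were thus high for PRAME, and its mean level of 466 CPM ± 31.6 (SD, n = 2) exceeded that of 97.4% of the 12234 detected protein-coding genes. Per library it was 443 CPM (95% Wilson interval 435 to 452) and 488 CPM (479 to 497). Its transcripts summed to 273 TPM in replicate 1 and 303 TPM in replicate 2. TPM scales an estimated transcript level by length.

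XAGE2, a small X-linked gene of the XAGE group, came second by reads. It lies at chrX:52369030-52375680 on the plus strand (ENSG00000155622.7). It had 1151 and 1159 reads, or 47.7 CPM (45.0 to 50.5) in replicate 1 and 52.2 CPM (49.3 to 55.3) in replicate 2. Its only transcript in the table was at 134 TPM in replicate 1 and 142 TPM in replicate 2, a mean of 138 TPM ± 6.03 (SD, n = 2). By TPM this placed XAGE2 above 91.2% of the 11859 protein-coding genes at 1 TPM in both libraries, and by CPM, which is not scaled by length, above 65.6% of detected genes.

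PAGE4 was the third. The gene encodes a small, largely disordered protein best known from prostate, and lies at chrX:49829260-49833973 on the plus strand (ENSG00000101951.17). It had 83 reads (3.44 CPM, 2.77 to 4.26) in replicate 1 and 76 reads (3.42 CPM, 2.74 to 4.28) in replicate 2. The replicates overlapped within their counting intervals. The transcripts of PAGE4 summed to 14.2 TPM in replicate 1 and 15.1 TPM in replicate 2, and the transcript PAGE4-202 held 91.8% and 98.3% of this. The nearest protein-coding neighbours outside the families stood at 8.40 CPM (PPP1R3F, 528 kb away) and 7.92 CPM (USP27X, 46.0 kb away on the other side).

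The replicates were set against counting noise, a test that compares 2 libraries and not conditions. Only 3 members had enough reads to be tested. PRAME was called, 0.15 higher in replicate 2 on the log2 scale after TMM scaling of the libraries, with an adjusted p of 9.58e-12 (edgeR exact binomial test, two-sided, Benjamini-Hochberg over 15299 genes), where 13.1% of all genes tested were called. The log2 difference of XAGE2 had the same size, 0.14, at an adjusted p of 0.121 with fewer reads, and that of PAGE4 was 0.00 at an adjusted p of 1 (same exact test). The call for PRAME therefore concerns a difference between libraries that is small beside its level.

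The remaining members gave traces. Leaving out PRAME, XAGE2, PAGE4, XAGE1A and XAGE1B, 83 members shared 50 reads in replicate 1 and 23 reads in replicate 2, spread over 19 and 11 genes. MAGEA4, a type I MAGE gene of spermatogonia, had 6 and 7 reads, 0.282 CPM ± 0.0472 (SD, n = 2), and 92.7% of its sequence was its own. XAGE3 had 6 reads in replicate 1 and 2 reads in replicate 2. These counts sit at or a few reads above what a count of 0 allows.

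CTAGE8 and CTAGE4, which are not on chromosome X, had 8 and 3 reads and 5 and 2 reads, but they share 94.8% of their 50-base words with each other, so neither count belongs to 1 gene. MAGEB1 had 1 and 3 reads, and MAGEA8 and MAGEA11 each had 2 reads in replicate 1 and 1 read in replicate 2. A further 16 members had reads in 1 library only, 12 of them in replicate 1, with at most 3 reads (CT45A1). Of the 9 CT45A genes 7 had no read, of 13 GAGE genes 12, of 11 MAGEB genes 9, of 12 MAGEA genes 8, of 10 SPANX genes 7, of 8 SSX genes 6, and all 3 CTAG genes and SAGE1 had none.

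XAGE1A and XAGE1B looked different in the deposited tables. XAGE1A (ENSG00000204379.11, chrX:52495676-52500812, plus strand) had 4 reads in replicate 1 and 5 reads in replicate 2. XAGE1B (ENSG00000204382.12, chrX:52512077-52520803, minus strand) had 5 and 10 reads. In the transcript table XAGE1A summed to 884 TPM in replicate 1 and 741 TPM in replicate 2, and XAGE1B to 667 and 715 TPM. In each library both genes were thus below 1 CPM and above every other member by TPM.

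Since the copies cannot be told apart, their sum is the interpretable value. XAGE1A and XAGE1B together reached 1550 TPM in replicate 1 and 1455 TPM in replicate 2, a mean of 1503 TPM ± 67.2 (SD, n = 2). Of the 57825 other genes compared, 107 had a higher mean TPM. The sum was 5.67 times the TPM of PRAME in replicate 1 and 4.80 times in replicate 2, and held 78.5% and 75.9% of the TPM of all members, which was 1976 TPM in replicate 1 and 1918 TPM in replicate 2. The share of PRAME in that total was 13.8% and 15.8%. By TPM per gene the order was XAGE1A and XAGE1B, PRAME, XAGE2 and PAGE4. XAGE1A and XAGE1B, at 812 TPM ± 101 and 691 TPM ± 33.9 (SD, n = 2), are the neighbours in that order whose ranges of 1 SD around the mean overlapped.

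**Figure D2:**
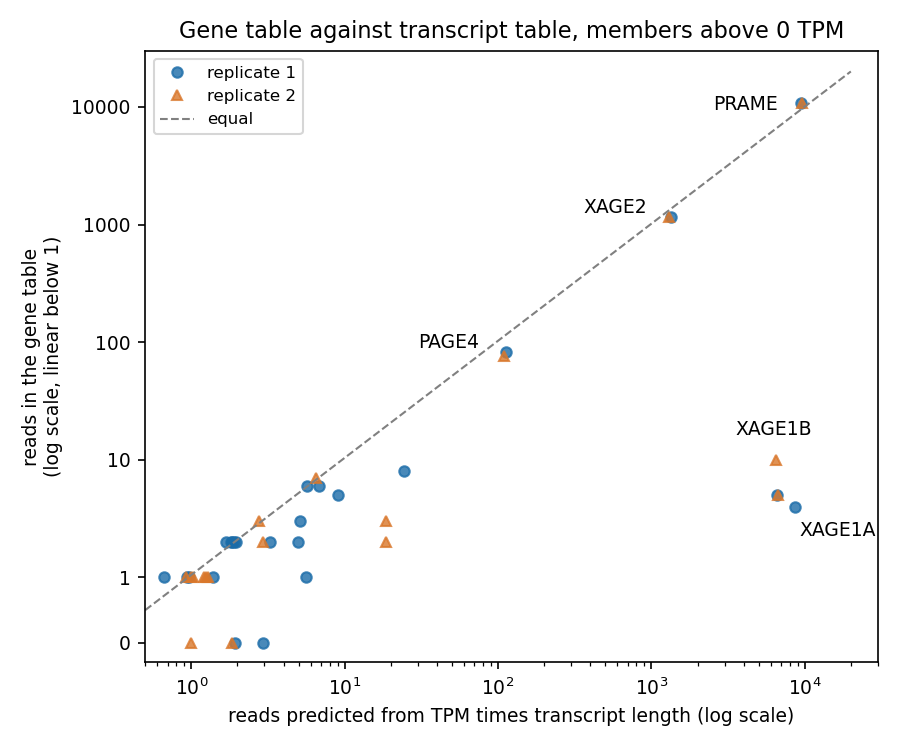
Reads in the gene table (vertical, log scale, linear below 1) against the reads predicted from TPM times transcript length (horizontal, log scale) for members above 0 TPM, with circles for replicate 1, triangles for replicate 2 and a dashed line where both are equal. PRAME, XAGE2 and PAGE4 lie near the line, and XAGE1A and XAGE1B lie far below it, at 10 reads or fewer against 6538 or more predicted.

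The gap between the tables was measured by turning TPM into predicted reads. For each gene, TPM times transcript length was summed and scaled to the library total. PRAME had 10702 reads against 9468 predicted in replicate 1 and 10834 against 9667 in replicate 2. XAGE2 had 1151 against 1336 and 1159 against 1311, and PAGE4 83 against 112 and 76 against 110. For these 3 genes the ratio of counted to predicted reads ran from 0.691 to 1.13. XAGE1A and XAGE1B had 9 reads against 15280 predicted in replicate 1 and 15 reads against 13227 in replicate 2, or 0.0589% and 0.113% of the prediction. Of the 5 members at 10 TPM or more, 2 fell under 10% of their predicted reads in both libraries (40.0%), as did 278 of 7265 protein-coding genes at that level (3.83%).

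That gap moved with shared sequence over all genes. Every transcript of GENCODE 29 was cut into 50-base words, and the words of a gene found in no other gene on either strand were counted as its own. Among protein-coding genes at 10 TPM or more, the 5624 with at least 90% own words had a median of 1.08 counted reads per predicted read in each library, and 0.871% of them were under 10%. The 1424 genes with 50% to 90% own words had medians of 0.952 and 0.953. Below that the counts dropped: the 176 genes with 10% to 50% own words had medians of 0.225 and 0.248, and of the 41 genes with fewer, 33 (80.5%) were under 10% of the prediction.

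Short transcripts came with a smaller gap. The prediction used the full annotated length, which may overstate the reads of short transcripts, the 614-base ones of XAGE1A and XAGE1B among them. That was not tested. The 136 genes with at least 90% own words and a mean transcript under 700 bases, as XAGE2 and PAGE4 have, had medians of 0.737 and 0.727. How the gene table's counting treated reads that fit several genes is not given in the sources used here, and its part in the gap was not tested.

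XAGE1A had no word of its own, as all 1101 of its words also stand in XAGE1B. XAGE1B had 342 own words of 1443, or 23.7%. PRAME, XAGE2 and PAGE4 each had 100% own words. Over the 88 members the median was 49.97% own words, against 98.6% for protein-coding genes, and 44 members had less than 50%, where 8.10% of protein-coding genes did. Of these 44, 17 had no own word at all: XAGE1A, 6 GAGE, 4 CT45A, 3 SSX and 2 SPANX genes, and 1 CTAGE gene.

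**Figure D3:**
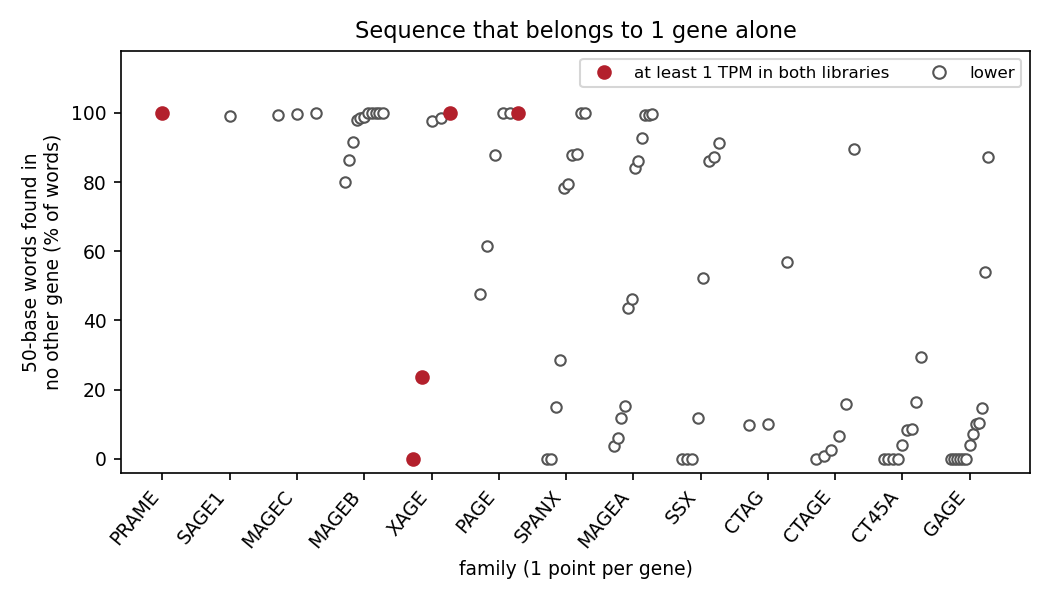
Percentage of 50-base words found in no other gene (vertical) for each member, 1 point per gene, grouped by family (horizontal), with filled points for members at 1 TPM or more in both libraries. PRAME, MAGEB and MAGEC genes sit near the top, most CT45A, CTAGE and GAGE genes sit below 30%, and filled points stand at 100% except XAGE1A at 0% and XAGE1B at 23.7%.

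A count of 0 therefore does not mean the same for every member. Of the 60 members without a read, 35 had less than 50% own words. The other 25 had at least 50%, and 13 of these had at least 90%, among them genes of the MAGEB family, SAGE1, MAGEC2 and MAGEA1, so for those a read of the gene could in most places be assigned to it. The transcript table shares ambiguous reads among copies and gave little more: 55 of the 60 were listed at 0 TPM in both libraries, and the highest of the 3 above 0 was SSX4 at 0.149 TPM in replicate 1. GAGE12D and GAGE12G had no transcript in that table. Of the 86 members with one, 5 were at 1 TPM or more in both libraries (5.81%), against 59.9% of protein-coding genes, and they were the 3 detected genes with XAGE1A and XAGE1B.

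Identical transcripts limit the split between copies further. In GENCODE 29, 28 member transcripts of 19 genes have the same sequence as a transcript of another gene. The TPM table lacked 9 of these, and in all 9 cases listed the identical one, so that XAGE1A-201, XAGE1A-202 and XAGE1A-204 were listed while their XAGE1B counterparts were not. XAGE1A-203 and XAGE1B-203, both 614 bases and identical in GENCODE 29, held 90.7% of the summed XAGE1A and XAGE1B TPM in replicate 1 and 90.9% in replicate 2. XAGE1A-203 stood at 741 and 615 TPM and XAGE1B-203 at 665 and 708 TPM, so which was higher differed between the libraries. The table lists a later version of both than GENCODE 29 does, so the sequences the authors used may differ from those compared here, as may those of 78 of the 205 member transcripts in the table.

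**Figure D4:**
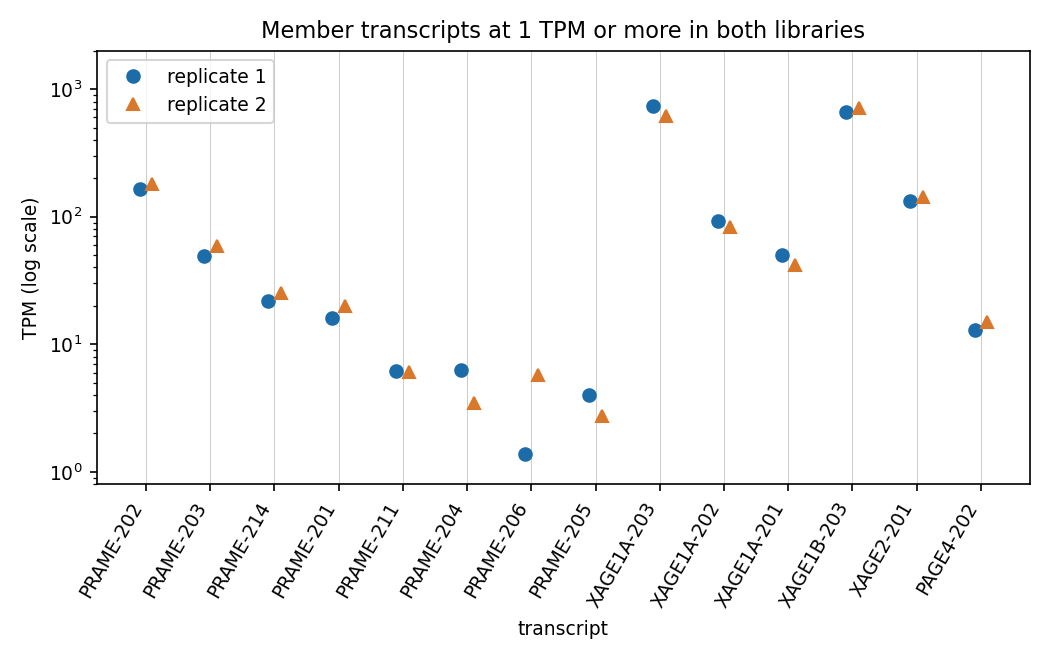
TPM (vertical, log scale) of each member transcript at 1 TPM or more in both libraries, with circles for replicate 1 and triangles for replicate 2. XAGE1A-203 and XAGE1B-203 are the highest, 8 PRAME transcripts span from PRAME-202 down to the lowest values of the plot, and XAGE2 and PAGE4 are each represented by 1 transcript.

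PRAME was spread over several isoforms. Of its 14 transcripts in the table, 8 were at 1 TPM or more in both libraries. PRAME-202 was the main one, at 164 TPM in replicate 1 and 180 TPM in replicate 2, which was 59.8% and 59.5% of the gene. PRAME-203 held 18.1% and 19.4% (49.5 and 58.9 TPM). The shares of both isoforms moved by less than 2 percentage points between libraries.

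On chromosome X the high XAGE genes stood beside low relatives. XAGE2, XAGE1A and XAGE1B start within 152 kb of each other. Beyond them, SSX7, SSX2, SSX2B, SPANXN5, XAGE5 and XAGE3 follow between 286 kb and 499 kb from the start of XAGE2, each at 6 reads or fewer per library. XAGE3 and XAGE5 had 98.6% and 97.7% own words, so their low counts were not shared with a copy, and their TPM means were 0.626 ± 0.319 and 0.0493 ± 0.0697 (SD, n = 2). On the other side MAGED4 and MAGED4B, members of a MAGE group that is active in many tissues, had 1 and 0 reads and 0 and 5 reads in replicates 1 and 2, but 22.0 and 23.1 TPM on average. Like XAGE1A and XAGE1B they are near copies, with 0.991% and 3.71% own words.

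**Figure D5:**
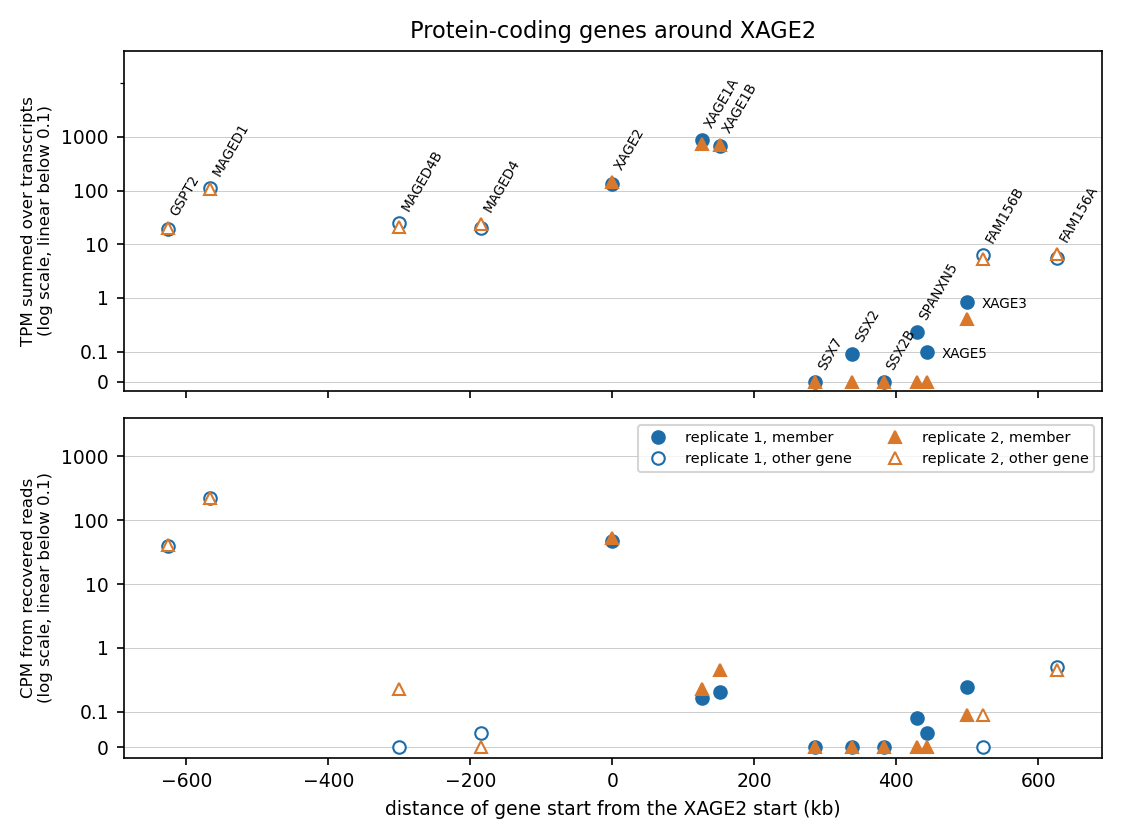
Protein-coding genes within 650 kb of the start of XAGE2 by distance (horizontal, kb), with summed TPM (upper panel) and CPM from recovered reads (lower panel) on log scales that are linear below 0.1, circles for replicate 1, triangles for replicate 2 and filled symbols for members. XAGE1A and XAGE1B are the highest genes in the upper panel and lie below 1 CPM in the lower one, MAGED4 and MAGED4B drop in the same way, and XAGE2 and MAGED1 stay high in both.

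The promoters of the members were compared as sequence, because promoter DNA methylation is a main part of the silencing described for such genes. RefSeq windows on GRCh38.p14, from 250 bases before to 50 after the outermost start, were found for 72 of the 88 members among 15859 windows, after leaving out 1 (GAGE12B) that lay over 10 kb from the member's gene. The observed over expected CpG content of the members had a median of 0.444, against 0.763 in other promoters and 0.679 in the other promoters of chromosome X. The 5 members at 1 TPM or more had a median of 0.481 and the other 67 a median of 0.444. That difference was not tested, and the 5 include the near copies XAGE1A and XAGE1B. The bases before the start are printed for the 3 XAGE genes whose neighbourhood held both high and low members and for PRAME, with each CG in capitals and without bases that GENCODE 29 places inside the gene. The XAGE2 window is chrX:52368771-52369020 (plus strand), that of XAGE5 chrX:52811037-52811286 (plus), that of XAGE3 chrX:52868084-52868333 (minus) and that of PRAME chr22:22559362-22559515 (minus).
XAGE2: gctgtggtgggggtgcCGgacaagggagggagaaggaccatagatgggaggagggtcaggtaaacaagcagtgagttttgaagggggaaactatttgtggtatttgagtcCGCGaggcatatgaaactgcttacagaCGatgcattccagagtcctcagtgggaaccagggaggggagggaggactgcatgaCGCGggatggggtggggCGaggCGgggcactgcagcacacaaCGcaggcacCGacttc
XAGE5: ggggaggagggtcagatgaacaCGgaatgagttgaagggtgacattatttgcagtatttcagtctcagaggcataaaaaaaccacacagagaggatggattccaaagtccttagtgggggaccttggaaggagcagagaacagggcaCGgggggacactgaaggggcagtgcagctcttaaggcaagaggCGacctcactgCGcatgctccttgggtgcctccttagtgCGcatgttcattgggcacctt
XAGE3: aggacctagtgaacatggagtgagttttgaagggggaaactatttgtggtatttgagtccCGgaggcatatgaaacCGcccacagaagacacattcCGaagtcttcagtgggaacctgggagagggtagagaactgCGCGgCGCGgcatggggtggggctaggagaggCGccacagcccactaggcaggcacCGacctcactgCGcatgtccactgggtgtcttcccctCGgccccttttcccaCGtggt
PRAME: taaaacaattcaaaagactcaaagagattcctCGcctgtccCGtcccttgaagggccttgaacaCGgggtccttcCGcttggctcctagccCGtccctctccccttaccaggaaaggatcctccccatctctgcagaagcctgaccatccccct
The printed XAGE2 window held 10 CG, that of XAGE5 held 5 and that of XAGE3 held 12. Their levels were 49.9 CPM, 0.0207 CPM and 0.169 CPM in the same order. The 250 bases before the RefSeq start of XAGE1A and of XAGE1B, which are not printed, shared a run of 237 bases. GENCODE 29 places 132 of the 250 XAGE1A bases, and the whole XAGE1B window, inside the gene. No methylation was measured here.

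Short motifs were counted in the same windows on both strands, as a description of letters and not of binding. CCGGAA, the core of ETS sites, stood in 8.33% of member windows and 22.8% of other windows, and PRAME held it. CACGTG, an E box, stood in 29.2% of member windows and 8.72% of others. The 21 member windows with CACGTG were 11 of 11 GAGE windows, 5 CTAGE, 4 PAGE (PAGE4 among them) and 1 XAGE window (XAGE3), and the GAGE windows are near copies of each other. TATAAA stood in 0 of 72 member windows and 9.79% of others.

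Related gene lists were read against the 61.6% of all protein-coding genes that reached 1 CPM in both libraries. The type II MAGE genes share the MAGE homology domain but are active in many tissues. Of these, 7 of 11 were at 1 CPM or more in both libraries, led by MAGED1 at 223 CPM and MAGED2 at 202 CPM. Below it were the near copies MAGED4 and MAGED4B, at 22.0 and 23.1 TPM on average, and MAGEE2 and MAGEL2, at 0.352 and 0.105 TPM. None of the 12 MAGEA, 11 MAGEB and 3 MAGEC genes reached 1 CPM in both libraries. Among the known partners of MAGE, SSX and PRAME proteins 10 of 11 were detected. TRIM28, the ligase that MAGEA3 and MAGEC2 bind, reached 1270 CPM. CUL2, ELOB and ELOC, subunits of the ligase that uses PRAME, stood at 56.2, 119 and 108 CPM. The partner below the threshold was TRIM31 at 0.413 CPM.

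Of 14 genes listed as silencing machinery 14 were detected. Of these, 12 write, read or remove DNA methylation or repressive histone marks, and the others were CTCF and ZNF165, which do not. DNMT1, which copies methylation after replication, was at 165 CPM, its partner UHRF1 at 40.6 CPM, the de novo enzyme DNMT3B at 111 CPM and the demethylating enzyme TET1 at 166 CPM. DNMT3L, a germ cell cofactor of the de novo enzymes, had 73.2 CPM in replicate 1 and 51.0 CPM in replicate 2. ZNF165, itself a cancer-testis gene, was counted in this list and in the next.

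Of 29 other cancer-testis genes outside these families 9 were detected, a lower share than over all protein-coding genes. Among the 9 was DDX53, the gene the cells were transduced with. The count rests on reads, and TPM differed for some genes. TPTE, with 0 reads in both libraries, averaged 8.17 TPM, and ZNF165, counted as detected, averaged 0.0570 TPM. TPM was summed only over the 201667 of 251955 transcripts that GENCODE 29 holds. Whether ZNF165 lost transcripts in this way was not checked. LUZP4 was at 41.2 CPM and DDX43, a helicase related to DDX53, at 23.6 CPM. SPAG9, at 119 CPM, is also active in many tissues. CTCFL, the germ cell paralogue of CTCF that has been tied to MAGEA activation, was at 1.77 CPM, with 45 and 37 reads. These lists were chosen with earlier results of the same libraries known, so their counts describe the libraries.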

How the data were processed

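Both libraries were TCam-2 cells overexpressing DDX53 (1 group, 2 replicates). The labels name a strand-specific kit for polyadenylated RNA. Trim Galore 0.6.10, STAR 2.7.11a, DESeq2, Salmon 1.10.2 and GRCh38 (hg38) are named in the submitters' processing notes. The read counter, annotation and index are not given in the sources used here.

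The authors deposited TPM for 251955 transcripts. The deposited gene table holds a signal, counts scaled by a single factor for each library, although it is named as CPM. Every value was a whole multiple of 1 read's value (tolerance 0.01 reads), so whole reads were recovered and CPM were computed from them. In both tables the header lacks a name for the identifier column. No column of per-sample values was left unused.

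Genes were assigned by identifier through GENCODE 29, which held 201667 of the transcripts. The other transcripts were left out of the TPM of genes. A gene was called detected at 1 CPM in both libraries. Replicates were compared with edgeR 4.0.16 (exact binomial test, TMM, filterByExpr, Benjamini-Hochberg adjustment, threshold 0.05), and DESeq2 1.42.0 size factors were an alternative. The test was checked on simulated data. Pairwise identity used Biopython 1.88 on coding bases. No protein table was used here, so the planned protein comparison was replaced by coding bases and words were counted over transcripts.

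The plan let any member with a read, or with 0.1 TPM, in either library be named. Some members below that, such as MAGEA1, MAGEC2 and SSX7, were named as well. The members and all lists were chosen with earlier results of these data known. The lists were type II MAGE genes, partners, silencing machinery, other cancer-testis genes and cell type markers, of which 1 list is not reported here. Other thresholds, scalings, word lengths and each library alone were tried. Wilson intervals carry a 95% level.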

Additional observations from a re-analysis of the deposited data

How the results depend on the processing

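The number of members detected rose from 3 to 7 at 0.1 CPM and to 12 with 1 read in both libraries, and was 2 at 5 CPM. Under the authors' factors and from either library alone it was 3. Members with a read in both libraries numbered 12, or 6 when at least 4 reads were asked for. Taking each library alone, 24 members had a read in replicate 1 and 16 in replicate 2, each including those 12. Members at 1 TPM in both libraries numbered 5, or 9 at 0.1 TPM, and 4 with XAGE1A and XAGE1B counted as 1 gene. The summed level of 521 CPM stayed within 497 to 545 from either library alone, and was 1947 when TPM summed over transcripts replaced CPM, a value on another scale. The 1 member called between replicates, PRAME, was also called with DESeq2 size factors and with no filter on low counts, while 0 members were 2-fold apart with a pseudocount of 1 or of 0.1. The median share of own words was 37.4% with words of 31 bases and 70.8% with words of 100 bases. Member promoters were 0.319 lower in CpG content than other promoters (-0.319), and the difference was -0.235 against other promoters of chromosome X. Leaving out the CTAGE genes and counting XAGE1A and XAGE1B as 1 were chosen after seeing the data. Without the CTAGE genes 10 members had a read in both libraries. The planned protein comparison was not run. No paired analysis was possible because the libraries analysed form 1 group. The levels have no control beside them.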
